A study of Mus musculus with 4 samples.

Results

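The 4 kinases that phosphorylate the translation factor eIF2alpha, EIF2AK1, EIF2AK2, EIF2AK3 and EIF2AK4, and PPP1R15A (GADD34), the phosphatase subunit that reverses their action, were followed in H460 cells after farnesol. All probes of the array that carry 1 of these 5 gene names were taken, which gave 6 probes of the 41000 on the array and 5 genes of 18757 gene symbols. EIF2AK1 had 2 probes and each of the others had 1. H460 is an established human lung carcinoma line. The cells received either 250 µM farnesol (FOH), an isoprenoid alcohol, for 4 h or dimethyl sulphoxide, the solvent, as the vehicle. The experiment was done in duplicate, and each farnesol RNA was hybridised together with its matched vehicle RNA on 2 arrays with the dyes exchanged, so that 4 arrays hold 2 replicates. The organism is given as mouse in the labels, but the treatment protocol is for human H460 cells and the array's gene names are human, so human genes are described. The sample names code the RNA set against farnesol as OH, and it was read as vehicle from the deposited table's header and the stated treatments. The study asked how apoptosis caused by farnesol relates to stress of the endoplasmic reticulum (ER).

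Phosphorylation of eIF2alpha turns eIF2 into an inhibitor of its own exchange factor eIF2B, which slows translation of most messages while a few, such as that of ATF4, are translated better. Each kinase answers to a different signal: EIF2AK1 (HRI) to lack of heme and to mitochondrial stress, EIF2AK2 (PKR) to double-stranded RNA, EIF2AK3 (PERK) to unfolded proteins in the ER lumen, and EIF2AK4 (GCN2) to uncharged tRNA. The kinases are switched on by dimerisation and phosphorylation of the protein, which an RNA measurement does not show. PPP1R15A brings protein phosphatase 1 to eIF2alpha and so closes the loop, and its gene is a known target of ATF4 and CHOP.

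All values below are log2 ratios of farnesol over vehicle or intensities in scanner units, and a log2 ratio of 1 is a doubling. Over the channels of the arrays, 82.7% to 93.0% of probes were well above background, and the replicates' log2 ratios correlated at r = 0.680 across features, which are not independent. Each array was its own slide, so slide and array cannot be told apart. All 6 probes were well above background in the farnesol and the vehicle channel on 4 of 4 arrays, and none was saturated or flagged as an outlier. The 5 epithelial markers (KRT8, KRT18, KRT19, EPCAM and CDH1) were well above background in both channels on every array. In vehicle RNA 10 of 12 leukocyte, endothelial and fibroblast markers were too, so this flag, which most probes pass, does not separate cell types. Of the others, CD3D passed it in vehicle RNA on 1 array and PDGFRB on none. The 17 markers' log2 ratios ranged from -0.65 to 0.31.

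After 4 h of farnesol, PPP1R15A RNA was 3.83-fold higher than in vehicle cells, with a log2 ratio of 1.94 ± 0.27 (SD, n = 2). EIF2AK3 was higher too, but by very different amounts in the replicates, 2.32-fold in replicate 1 and 1.14-fold in replicate 2. EIF2AK2 and EIF2AK4 were lower, with log2 ratios of -0.55 ± 0.02 and -0.51 ± 0.11, and EIF2AK1 was at -0.03 ± 0.06 (SD, n = 2 each). In bulk RNA, a change in some cells and a smaller change in all cells cannot be told apart. None of the 5 genes passed limma's moderated test at an adjusted p of 0.05 over 28600 features, a threshold that 0.0105% of all features passed. With each probe as a feature of its own, 0 of 6 probes passed, against 0.0107% of 37349 probes. The unadjusted p was under 0.05 for PPP1R15A, EIF2AK2 and EIF2AK4, that is 3 of 5 genes, as it was for 14.5% of all features.

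**Figure D1:**
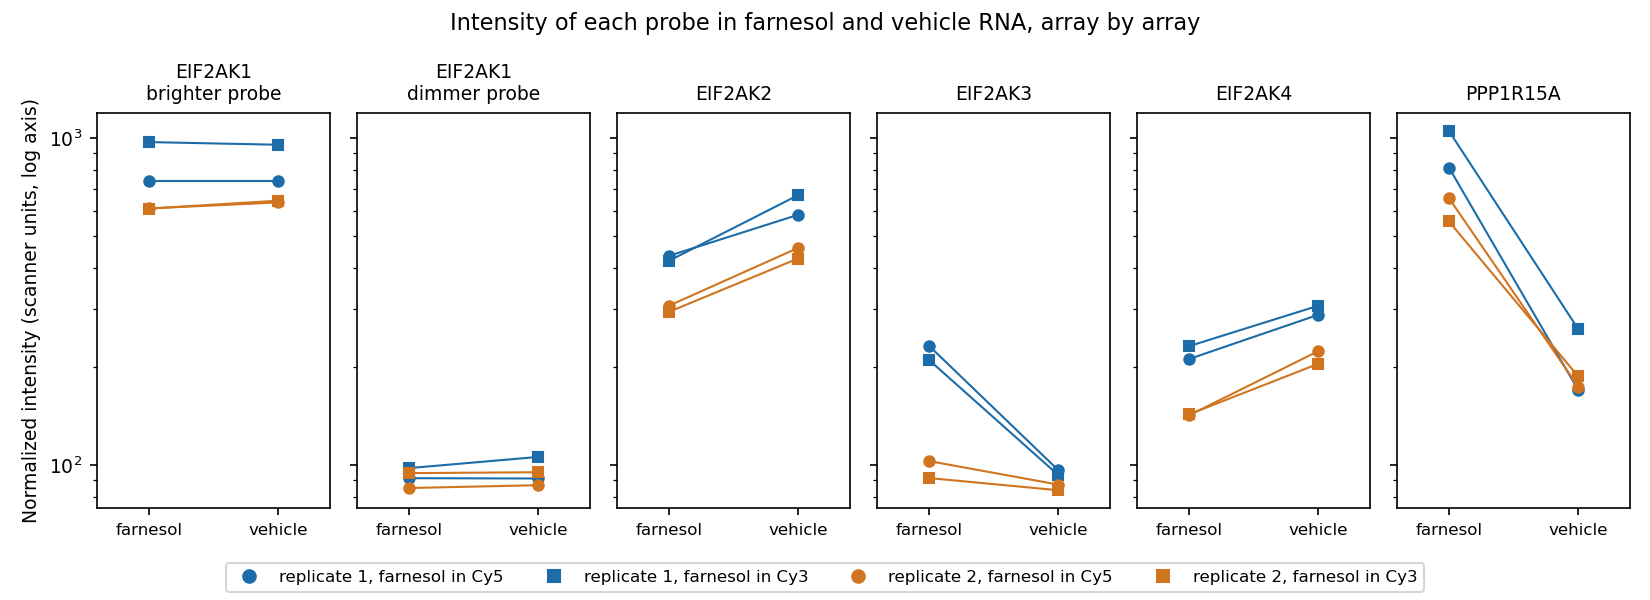
Normalized intensity (scanner units, log axis) of each probe in farnesol RNA and in vehicle RNA, with 1 line per array, coloured by replicate and marked by the dye of farnesol. PPP1R15A lies higher in farnesol on every array, EIF2AK2 and EIF2AK4 lie lower on every array, and EIF2AK3 separates clearly in replicate 1 alone.

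The phosphatase subunit PPP1R15A was measured by probe A_23_P90172. Its normalized intensity was 812 in farnesol and 170 in vehicle RNA on the replicate 1 array with farnesol in Cy5, and 1050 in farnesol and 261 in vehicle RNA on the dye-swapped array. In replicate 2 it was 655 in farnesol and 174 in vehicle RNA with farnesol in Cy5, and 556 in farnesol and 187 in vehicle RNA with farnesol in Cy3. The lowest farnesol value lay above the highest vehicle value, so the conditions did not overlap. The share of all features without such an overlap is not given here. The log2 ratios of the 4 arrays were 2.26, 2.00, 1.91 and 1.57. The replicate means were 2.13 and 1.74, or 4.38-fold and 3.34-fold. In each replicate PPP1R15A exceeded a 2-fold increase, with all 4 arrays in that direction, which 0.657% of all features did. None of the 4 kinases met this rule, and 0 of the 5 genes met its mirror image for lower values, which 0.238% of features did.

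The 95% interval of the log2 ratio of PPP1R15A, from the moderated variance and not adjusted for the number of features, ran from 1.51 to 2.36 (limma, unadjusted p = 0.000879, adjusted p = 0.192). With a background offset of 0 in place of 50, its log2 ratio was 2.30 and it passed (limma, adjusted p = 0.0376). In that setting 66 of 28600 features passed, against 3 in the main fit. PPP1R15A passed as well with the scanner software's processed signals, with a log2 ratio of 2.30 (limma, adjusted p = 0.0466), where 62 features passed. With median centring, where 25 features passed, its log2 ratio was 1.81 and it did not pass (limma, adjusted p = 0.067). The arrays with farnesol in Cy5 gave the higher ratio in both replicates, by 0.25 and 0.34. Over all probes tested, 5% had a difference between dye orientations above 0.25 in replicate 1 and above 0.24 in replicate 2, so that this probe lay at or past that margin. Its log2 ratio was 2.08 from the arrays with farnesol in Cy5 and 1.79 from those with farnesol in Cy3. Among the 17871 named genes tested, 0.487% had a higher mean log2 ratio, and PPP1R15A ranked 88. Its rank was 105 in replicate 1 and 85 in replicate 2.

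EIF2AK3, the ER-resident kinase PERK, was measured by probe A_23_P135857, which was dim. In replicate 1 its normalized intensity was 232 in farnesol and 96.8 in vehicle RNA with farnesol in Cy5, and 210 in farnesol and 93.5 in vehicle RNA with farnesol in Cy3. In replicate 2 it was 103 in farnesol and 87.3 in vehicle RNA with farnesol in Cy5, and 91.4 in farnesol and 83.9 in vehicle RNA with farnesol in Cy3. The vehicle values were alike in the replicates, and the farnesol values of replicate 1 lay well above those of replicate 2, of which the lowest fell within the vehicle range. The log2 ratios were 1.26 and 1.17 in replicate 1 and 0.24 and 0.12 in replicate 2, all above 0. The dye-swapped arrays differed by 0.09 and 0.12, against 1.03 between the replicates. The mean was 0.70 ± 0.73 (SD, n = 2), with a 95% interval of -0.33 to 1.73 (limma, adjusted p = 0.478). Only 1.19% of named genes had a larger SD between the replicates. EIF2AK3 ranked 259 among the named genes in replicate 1 and 2500 in replicate 2.

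The size of the EIF2AK3 ratio changed with the offset of 50 that was added to the background-corrected signals before logs were taken. With an offset of 0 the log2 ratios were 1.91 in replicate 1 and 0.41 in replicate 2, a mean of 1.16 (limma, adjusted p = 0.308). The scanner software's processed intensities were 1580 in farnesol and 372 in vehicle RNA, and 1100 in farnesol and 275 in vehicle RNA, on the replicate 1 arrays. On the replicate 2 arrays they were 488 in farnesol and 315 in vehicle RNA, and 349 in farnesol and 280 in vehicle RNA. These gave log2 ratios of 2.04 in replicate 1 and 0.48 in replicate 2, a mean of 1.26 (limma, adjusted p = 0.289). In each of these ways the replicate 1 value was the larger by more than 1 log2 unit. With median centring and an offset of 50 the log2 ratios were 1.22 in replicate 1 and 0.25 in replicate 2, slightly less than 1 log2 unit apart.

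**Figure D2:**
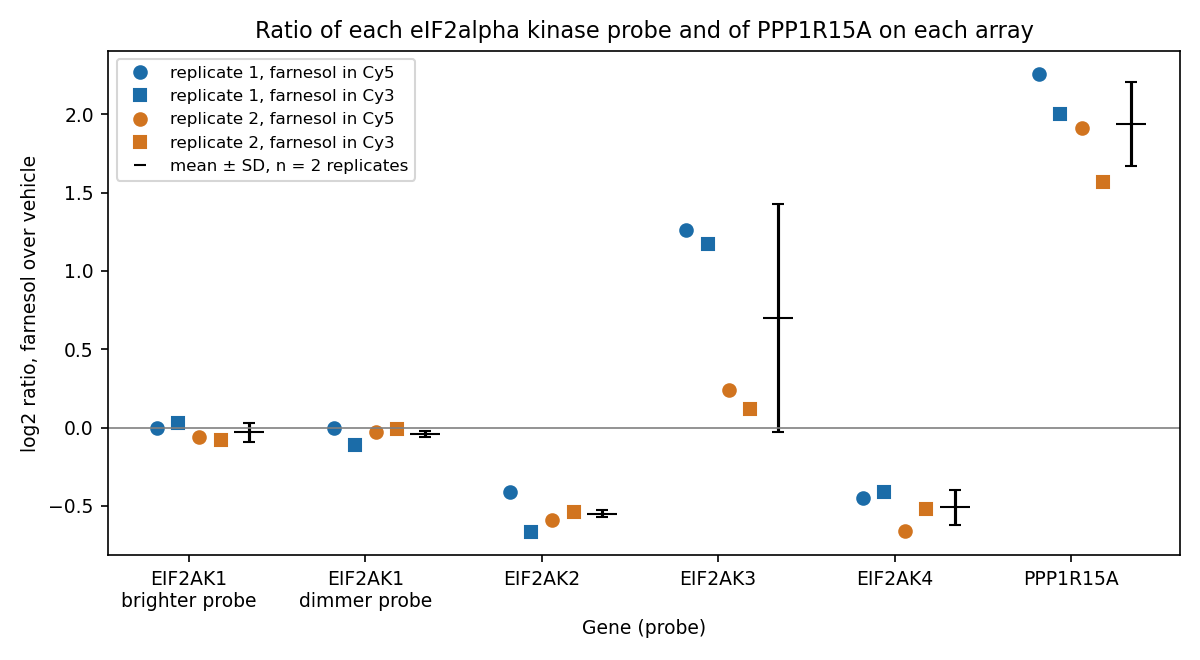
Log2 ratio of farnesol over vehicle for each probe on each of the 4 arrays (points), with the mean and SD of the 2 replicates (bars). PPP1R15A ran from 1.57 to 2.26, EIF2AK3 lay near 1.2 in replicate 1 and under 0.3 in replicate 2, EIF2AK2 and EIF2AK4 lay between -0.41 and -0.67, and both EIF2AK1 probes lay near 0.

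EIF2AK2, the double-stranded RNA sensor PKR and an interferon-induced gene, was measured by probe A_23_P142750. Its normalized intensity was 436 in farnesol and 582 in vehicle RNA, and 421 in farnesol and 668 in vehicle RNA, on the replicate 1 arrays. On the replicate 2 arrays it was 307 in farnesol and 461 in vehicle RNA, and 294 in farnesol and 428 in vehicle RNA. Farnesol was the lower on each array, while over all arrays the conditions overlapped slightly, since the farnesol value of 436 in replicate 1 lay above the vehicle value of 428 in replicate 2. The log2 ratios were -0.41 and -0.67 in replicate 1 and -0.59 and -0.54 in replicate 2. The dye-swapped arrays of replicate 1 differed by 0.25, more than the replicate means of -0.54 and -0.57 did. The 95% interval was -0.73 to -0.37, and vehicle was 1.47-fold above farnesol (limma, unadjusted p = 0.00266, adjusted p = 0.192). Of the named genes, 3.74% had a lower log2 ratio.

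EIF2AK4, the amino acid sensor GCN2, was measured by probe A_23_P54540. Its normalized intensity was 211 in farnesol and 288 in vehicle RNA, and 231 in farnesol and 307 in vehicle RNA, on the replicate 1 arrays. On the replicate 2 arrays it was 142 in farnesol and 223 in vehicle RNA, and 143 in farnesol and 204 in vehicle RNA. Farnesol was lower within each array, and the ranges of the conditions overlapped between the replicates with both conditions dimmer in replicate 2. The log2 ratios were -0.45, -0.41, -0.66 and -0.52, and the replicate means were -0.43 and -0.59. The 95% interval was -0.74 to -0.27, and vehicle was 1.42-fold above farnesol (limma, unadjusted p = 0.00702, adjusted p = 0.204). Of the named genes, 4.71% had a lower log2 ratio. EIF2AK2 and EIF2AK4 were lower on all 4 arrays, as were 21.9% of all features, and PPP1R15A and EIF2AK3 were higher on all 4, as were 20.9%.

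EIF2AK1, the heme-regulated kinase HRI, was measured by the bright probe A_23_P251173 and the dim probe A_24_P123768. The bright probe had 741 in farnesol and 741 in vehicle RNA, and 971 in farnesol and 953 in vehicle RNA, on the replicate 1 arrays. It had 609 in farnesol and 635 in vehicle RNA, and 608 in farnesol and 643 in vehicle RNA, on the replicate 2 arrays. Its replicate log2 ratios were 0.01 and -0.07, with a 95% interval of -0.22 to 0.17 (limma, adjusted p = 0.868). The dim probe had intensities of 85.2 to 98.0 in farnesol and 86.9 to 106 in vehicle RNA. Its mean log2 ratio was -0.04 ± 0.02 (SD, n = 2; limma, probe fit, adjusted p = 0.815). The probes of EIF2AK1 thus gave nearly equal ratios. With median centring in place of loess they were further apart, at -0.21 for the bright and 0.01 for the dim probe.

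Ordered by their log2 ratio, PPP1R15A stood above EIF2AK3 by 0.91 in replicate 1 and 1.56 in replicate 2. Its lowest array, at 1.57, lay above the highest array of EIF2AK3, at 1.26. EIF2AK3 stood above EIF2AK1 by 1.20 in replicate 1 and 0.25 in replicate 2, with an SD of that difference of 0.67 about a mean of 0.73, so that the order held on 4 of 4 arrays while the difference was hardly above its spread. EIF2AK1 stood above EIF2AK4 by 0.44 and 0.52. EIF2AK4 and EIF2AK2 did not differ beyond their spread, with differences of 0.11 and -0.02. No test was made of these differences.

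**Figure D3:**
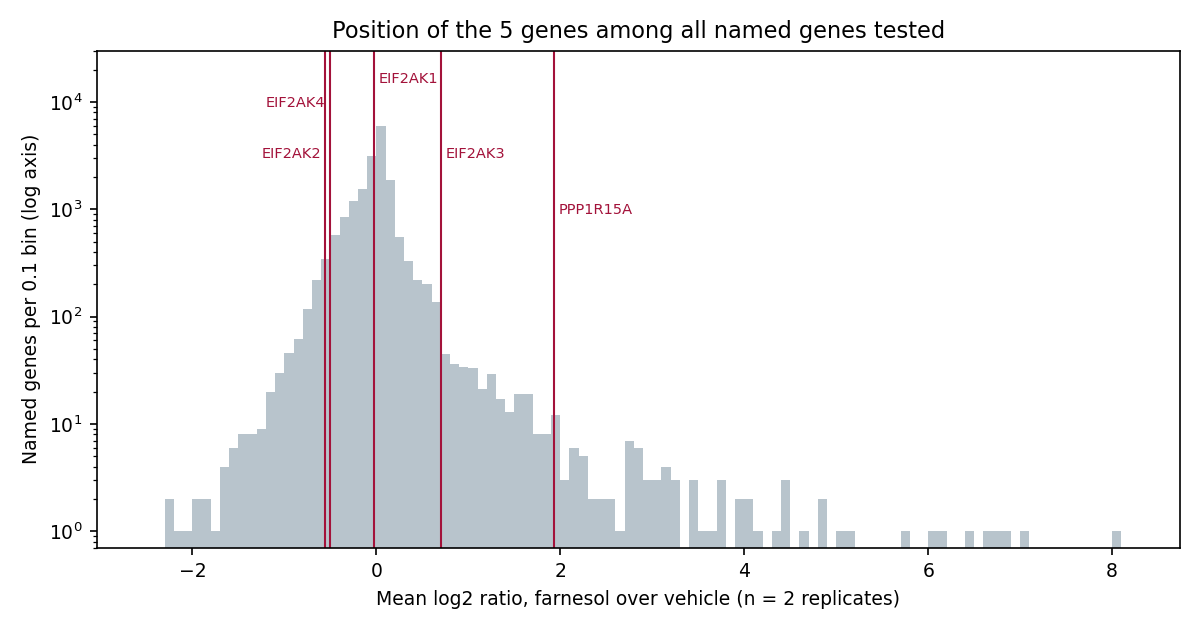
Histogram of the mean log2 ratio of farnesol over vehicle of the 17871 named genes tested (bins of 0.1, log axis), with vertical lines at the 5 genes. PPP1R15A lies in the upper tail, EIF2AK3 on the upper shoulder, EIF2AK1 at the centre, and EIF2AK2 and EIF2AK4 on the lower shoulder.

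In the authors' deposited table, which holds 7018 probes of replicate 1 at p-values up to 0.001, 4 of the 6 probes were listed and both EIF2AK1 probes were not. The authors' deposited table lists 17.1% of the 41000 probes. The authors' deposited table gives a ratio of farnesol over vehicle of 5.52 for PPP1R15A and 4.13 for EIF2AK3. For EIF2AK2 and EIF2AK4 the ratios in the authors' deposited table are 0.667 and 0.679. The test behind its p-values is not given in the sources used here.

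**Figure D4:**
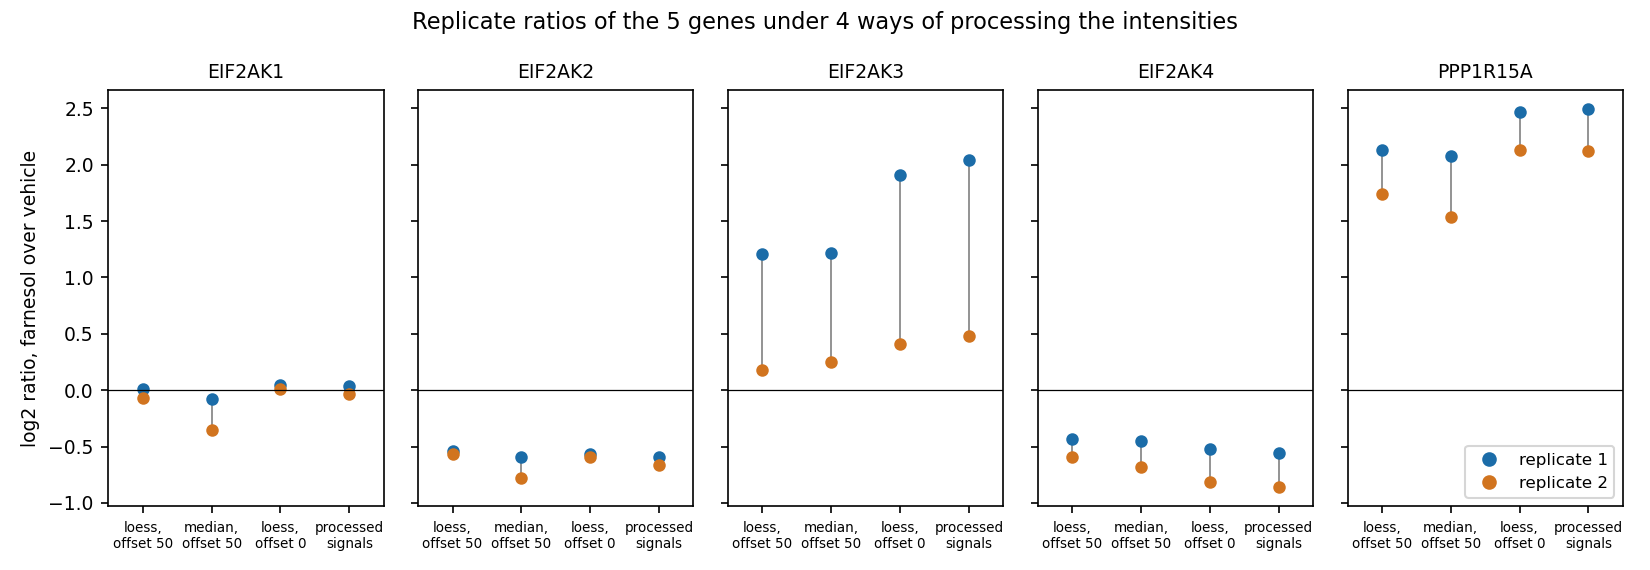
Log2 ratios of farnesol over vehicle in replicate 1 and replicate 2 for each gene (its brightest probe) under 4 ways of processing: loess or median centring with an offset of 50, loess with an offset of 0, and the scanner software's processed signals. The distance between the EIF2AK3 replicates widens without the offset, while EIF2AK2 and EIF2AK4 keep values below 0 and PPP1R15A stays at 1.54 or above.

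The rest of the pathway was described by 4 lists, 38 genes in all, each of which was on the array and tested. None of these genes passed limma's test, and the lowest adjusted p was 0.135, for ATF3. The unadjusted p was under 0.05 for 2 of 9, 1 of 4, 5 of 13 and 6 of 12 genes of the lists in the order below, against 14.5% of all features, so that the first 2 counts lie near that background. The list of eIF2 subunits, eIF2B subunits and EIF5, the GTPase-activating factor of eIF2, had a median log2 ratio of -0.18 over 9 genes, against 0.01 over all features. Of these, 6 of 9 were lower and 0 higher on all 4 arrays, against 21.9% and 20.9% of all features. EIF2S1, which encodes eIF2alpha itself, the substrate of the kinases, had -0.44 ± 0.17, and its other probe gave -0.14. EIF2B1, the eIF2B alpha subunit, had -0.51 ± 0.36 and EIF2B4, the delta subunit, -0.39 ± 0.01. EIF5 had -0.33 ± 0.29, but its other probes gave -0.07 and 0.28. EIF2S2, EIF2S3, EIF2B2, EIF2B3 and EIF2B5 had mean log2 ratios between -0.18 and 0.01, the highest being EIF2B2, which had -0.16 with median centring. EIF2S2 had opposite signs in the replicates, with 0.31 in replicate 1 and -0.44 in replicate 2. Over the list, the replicate medians were -0.11 and -0.38.

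Protein phosphatase 1, the enzyme that PPP1R15A directs, is encoded by PPP1CA, PPP1CB and PPP1CC. These catalytic subunits had log2 ratios of -0.37 ± 0.04, -0.55 ± 0.51 and -0.62 ± 0.44 (SD, n = 2 each; limma, adjusted p from 0.208 to 0.444), and all 3 were lower on 4 of 4 arrays, as were 21.9% of all features. Their other probes ranged from -0.07 for PPP1CA to -0.65 for PPP1CC. PPP1R15B (CReP), the constitutive counterpart of PPP1R15A, had 0.93 in replicate 1 and 0.12 in replicate 2, a mean of 0.53 ± 0.57 (limma, adjusted p = 0.493). Over the 4 genes the median was -0.46, with -0.25 in replicate 1 and -0.63 in replicate 2. PPP1R15B thus had a high first and a low second replicate, as EIF2AK3 did, while PPP1R15A was over 3-fold higher in both.

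Among 13 regulators of the kinases, the median was -0.20, with 2 genes past a 2-fold increase and 1 past a 2-fold decrease in each replicate, against 0.657% and 0.238% of all features. Of the 13, 6 were lower on all 4 arrays, against 21.9% of all features, and the replicate medians were -0.11 and -0.29. The 2 higher ones were the ER chaperones HSPA5 (BiP) and HSP90B1 (GRP94), both reported to bind the lumenal part of PERK. HSPA5 had 3.17 in replicate 1 and 1.66 in replicate 2, and HSP90B1, listed as TRA1, had 2.67 and 1.35, with its farnesol spot saturated on 1 array. DNAJC3 (P58IPK), a co-chaperone reported to inhibit PERK and PKR, had 0.32 ± 0.36, with -0.04 from its other probe. The lower one was GCN1, listed as GCN1L1, the ribosome-binding partner that GCN2 needs for its activation.

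GCN1 had normalized mean intensities of 787 in farnesol and 2220 in vehicle RNA. Its log2 ratios were -1.30 in replicate 1 and -1.69 in replicate 2, a mean of -1.49 ± 0.27 (SD, n = 2; limma, adjusted p = 0.192). It had 1 probe. IMPACT, which competes with GCN2 for GCN1, had -0.28 ± 0.12, and EIF2AK4 itself, as given above, -0.51. Of the partners of PKR, PRKRA (PACT), its protein activator, had -0.32 ± 0.28, TARBP2 (TRBP), an inhibitor, -0.27 ± 0.10, and ADAR, which edits double-stranded RNA, -0.47 ± 0.38 with 0.05 from its other probe. NPM1, a nucleolar protein reported to inhibit PKR, had -0.46 ± 0.39, with other probes from -0.42 to 0.39. PRKRIR, a regulator of DNAJC3, had -0.20 ± 0.32. NCK1, an adaptor reported to act on PERK, had 0.41 in replicate 1 and -0.29 in replicate 2, a mean of 0.06 ± 0.50. With median centring the NCK1 mean was -0.06. OMA1 and DELE1, which relay mitochondrial stress to HRI, had -0.14 ± 0.04 and 0.15 ± 0.27.

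**Figure D5:**
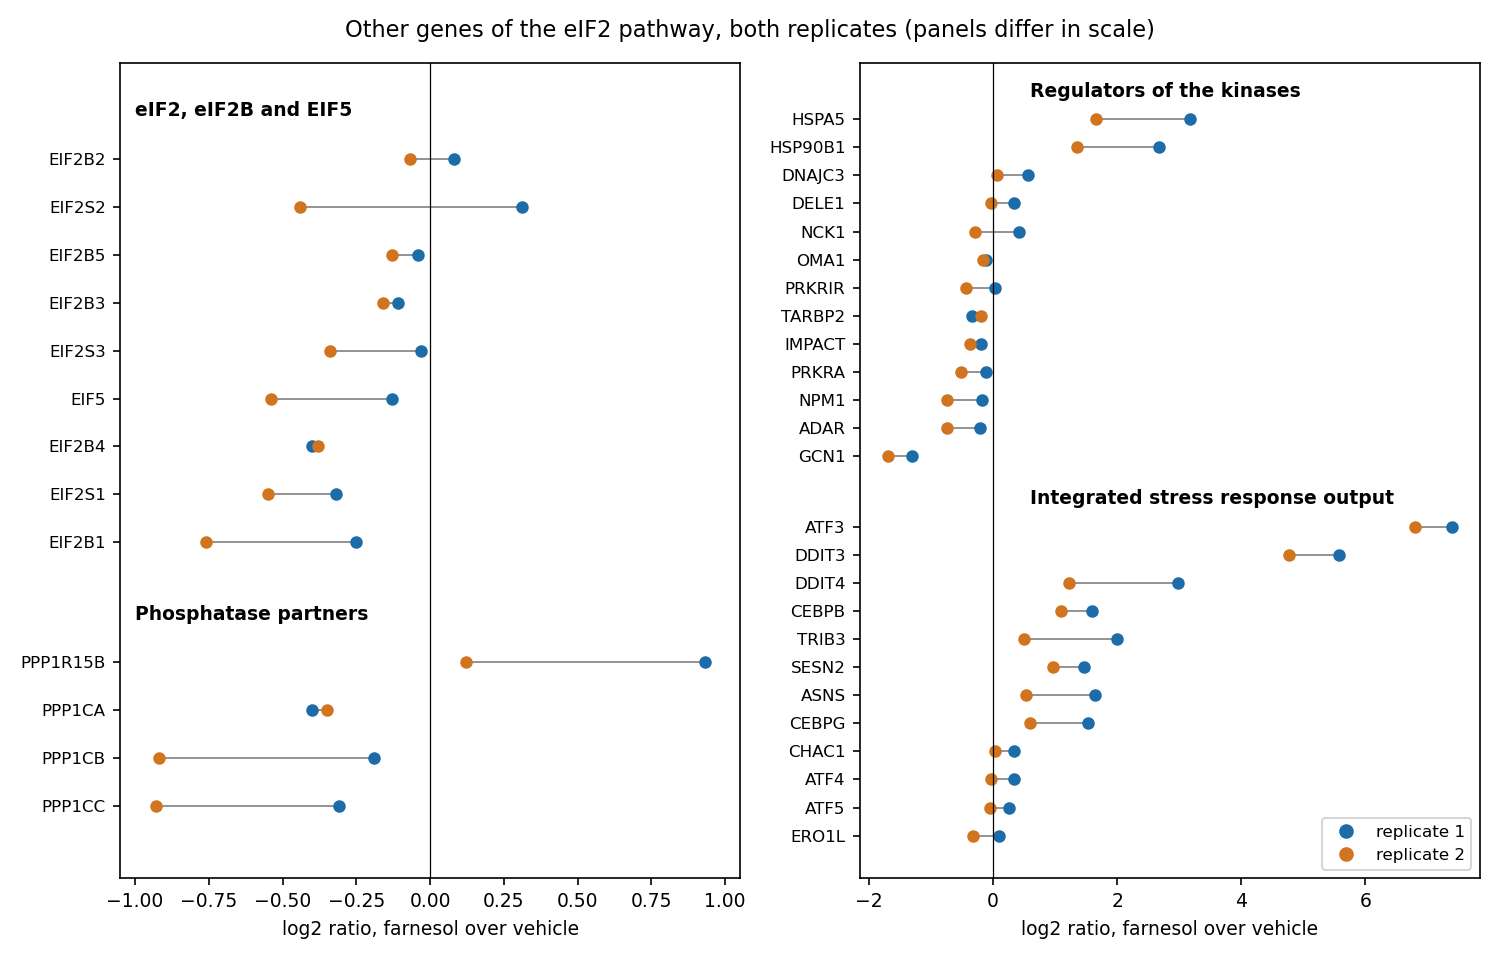
Log2 ratios of farnesol over vehicle in replicate 1 and replicate 2 for the 38 other genes of the pathway, grouped by role, with different scales in the panels. Most genes of the eIF2 and phosphatase lists lie below 0, GCN1 is the lowest and HSPA5 and HSP90B1 the highest of the regulators, and most output genes lie above 0.

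The output of the pathway, genes that act with or downstream of ATF4, had a median log2 ratio of 1.16 over 12 genes, of which 8 were higher on all 4 arrays, against 20.9% of all features, and 4 past a 2-fold increase in each replicate, against 0.657%. The replicate medians were 1.56 and 0.56. The highest were ATF3, a transcription factor, at 7.09 ± 0.42 with 2.90 from its other probe, and DDIT3 (CHOP), named above as an activator of PPP1R15A, at 5.17 ± 0.57. SESN2, a stress-induced regulator of mTORC1 signalling, had 1.22 ± 0.36, CEBPG, a dimer partner of ATF4, 1.06 ± 0.66, and CEBPB 1.35 ± 0.34 with 0.32 from its other probe. DDIT4, an inhibitor of mTORC1 signalling, had 2.10 ± 1.23. TRIB3, a pseudokinase that restrains ATF4 and CHOP, had 1.24 ± 1.07 with 0.65 from its other probe, and ASNS, asparagine synthetase, had 1.09 ± 0.80 with 0.00 from its other probe. ERO1L, an ER oxidase, had -0.12 ± 0.30. Among messages that phosphorylated eIF2alpha is known to favour in translation, ATF4 had a low RNA ratio of 0.15 ± 0.27, and -0.04 with median centring. ATF5, another, had 0.11 ± 0.22, and PPP1R15A had 1.94. These are examples and not the full set of such messages, and DDIT3, given above at 5.17, stood above PPP1R15A. CHAC1, listed as MGC4504 and a target of ATF4 in other systems, had 0.18 ± 0.22, with 0.33 in replicate 1 and 0.03 in replicate 2, and a mean of -0.05 with median centring.

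By Euclidean distance over the log2 ratios of the 4 arrays, the named genes nearest to PPP1R15A were MGC5306 (0.31), JUND (0.33), an AP-1 subunit, and HIST2H2AA (0.37), a histone, and no gene lay within 0.2. Nearest to EIF2AK3 were TRIM15 (0.12), MIS12 (0.14), a kinetochore protein, and ZNF24 (0.16), a zinc finger protein, with 7 genes within 0.2. EIF2AK2 had 51 genes within 0.2, with HEAB, FLJ30596 and CDCA1 nearest. EIF2AK4 had 127, with KIAA0196, DRG1 and CHPT1 nearest. EIF2AK1 had 4312, with DLEU2, SYTL3 and LOC91893 nearest, so a pattern like its own was common. The points of each comparison are 4 arrays of 2 replicates.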

How the data were processed

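RNA of H460 cells was hybridised to 4 Agilent arrays of 2 colours. The deposited intensity values, mean spot and median local background brightness per channel, come from Agilent's Feature Extraction 8.1.1.1 and are uncorrected, per the file headers (the labels give 8.1). The deposited processed intensity values had background and a spatial trend removed and the dyes balanced, per the file headers. A log10 ratio, red (Cy5) over green (Cy3), was deposited with them. A further table deposited by the authors holds a ratio and a p-value per probe, headed as replicate 1 in both copies, which are identical and name no program.

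In R 4.3.3 with limma 3.58.1, normexp background correction used an offset of 50, which makes ratios of dim probes smaller. Ratios were normalized by loess with control and outlying spots at weight 0, turned to farnesol over vehicle, and averaged over the dye-swapped arrays (n = 2). Tested were probes well above background in either condition, in the same condition's channel, on 1 or more arrays of both replicates. A gene was represented by its brightest probe. Limma's moderated test (lmFit, eBayes) of the mean against 0 was two-sided, adjusted by Benjamini-Hochberg across the 28600 features, with 1 residual degree of freedom and 1.81 prior degrees of freedom. The fit was tested on simulated data. The number of arrays limits the precision.

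The members and lists were chosen with earlier results of these data known. Named were the 5 genes with every probe, the 38 list genes, and the 3 genes nearest to each of the 5. EPCAM, GCN1, HSP90B1, DELE1 and CHAC1 were matched through older array names. Nothing in the labels says that the duplicates were separate cultures, so p-values measure only the spread between these samples, which may be technical. The sequence tables supplied were of the mouse, so no human position or sequence is given. The alternatives tried changed the offset, the signal, the normalization, the filter, the averaging, the dye orientation, the replicate and the probe of a gene.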

Additional observations from a re-analysis of the deposited data

How the results depend on the processing

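EIF2AK2, EIF2AK3, EIF2AK4 and PPP1R15A kept their direction under every alternative run. Over the settings with both replicates their log2 ratios ranged from -0.69 to -0.50, from 0.65 to 1.26, from -0.71 to -0.46 and from 1.79 to 2.30. EIF2AK1, at -0.03, turned sign with an offset of 0 (0.03) and with processed signals (0.01), and its dim probe turned to 0.01 with median centring. With the arrays fitted singly and the replicate as a random effect, which counts 4 arrays where there are 2 replicates, EIF2AK2 at -0.55 (limma, adjusted p = 0.0138), EIF2AK4 at -0.51 (adjusted p = 0.0102) and PPP1R15A at 1.94 (adjusted p = 0.00207) passed the threshold, in the probe fit too. In that setting 2894 of 28600 features passed in the gene fit and 3951 of 37349 probes in the probe fit. PPP1R15A passed the threshold as well at 2.30 with an offset of 0 and with processed signals, in both fits. It did not pass with median centring (limma, gene fit, adjusted p = 0.067).

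Leaving out 1 replicate leaves a value with no test. The log2 ratios then ranged from -0.07 to 0.01 for EIF2AK1 and its bright probe, from -0.57 to -0.54 for EIF2AK2, from 0.18 to 1.21 for EIF2AK3, from -0.59 to -0.43 for EIF2AK4 and from 1.74 to 2.13 for PPP1R15A. The list medians ranged from -0.38 to -0.11 for eIF2, from -0.63 to -0.25 for the phosphatase, from -0.29 to -0.11 for the regulators and from 0.56 to 1.56 for the output. Named genes at least 2-fold higher numbered 150, and 324 to 355 with 1 replicate left out, 215 with an offset of 0 and 223 with processed signals. Those at least 2-fold lower numbered 56, and 100 to 133 with 1 replicate left out, 88 with an offset of 0, 110 with processed signals and 109 with median centring, where 124 were higher.

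Features past limma's threshold numbered 3 in the gene fit. They numbered 66 with an offset of 0, 62 with processed signals, 25 with median centring, 2894 with arrays fitted singly, 5 with farnesol in Cy5 only and 15 with farnesol in Cy3 only. The probe fit gave 4, and under the same alternatives 138, 87, 34, 3951, 7 and 18. The cause of these changes was not tested. The ratio within an array pairs farnesol with vehicle, so the test of the mean ratio is the paired analysis. A further replicate block was fitted only in the setting with the arrays fitted singly.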

Other observations

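Over the 5 genes and the 38 other pathway genes, the log2 ratio was higher in replicate 1 than in replicate 2 for 40 of 43, or 93.0%, against 50.6% of all named genes tested. It was so for all 5 genes named in the report, and for 8 of 9, 3 of 4, 12 of 13 and 12 of 12 genes of the eIF2, phosphatase, regulator and output lists. The number was 41 of 43 with an offset of 0, where 48.1% of named genes had it, 41 of 43 with processed signals (50.3%) and 42 of 43 with median centring (59.9%). Among named genes above the median intensity of 214 the share was 54.1%, and below it 47.1%; 3 of the 5 genes and 32 of the 38 others lie above it. These counts were made after the values had been seen, and the genes share 4 arrays.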
